A study of Mus musculus with 18 samples.

Results

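Pericytes are the mural cells that wrap capillaries, and 5 genes widely used to mark them, Kcnj8, Abcc9, Rgs5, Cspg4 and Mcam, were read in fibroblasts and tumor cells sorted from mouse pancreas and pancreatic tumors. The genes were taken from a list by name, as 5 of the 23951 genes in the table, and not by their values. All 5 passed the filter of 1 FPKM (fragments per kilobase of transcript and per set number of mapped fragments) in at least 3 libraries, which 13369 genes passed. Poly(A) RNA was sequenced in 18 libraries of 5 groups. Fibroblasts came from normal pancreas (NPF, 3 libraries) or from tumors, as cancer-associated fibroblasts that kept Saa3 (WT_CAF, 5 libraries) or were Saa3-/- (KO_CAF, 3), and tumor cells kept Saa3 (WT_tumor, 4) or were Saa3-/- (KO_tumor, 3). NPF came from Elas-tTA/tetO-Cre mice with a Rosa26+/EYFP reporter, and all other groups carried in addition Trp53lox/lox, with Saa3-/- in the 2 KO groups. The elastase promoter that drives tTA, and through it Cre, is active in acinar cells, and NPF and WT_CAF thus differ in the tissue and in the alleles of the mice, which cannot be told apart. The sources used here give neither the ages of the mice nor the markers of the sort.

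Kcnj8 encodes Kir6.1, the pore of the vascular ATP-sensitive potassium channel, and Abcc9 encodes SUR2, the sulfonylurea receptor that surrounds this pore. Opening of the channel hyperpolarises mural cells and relaxes the vessel. Rgs5 encodes a GTPase-activating protein that shortens signalling through G-protein-coupled receptors, Cspg4 encodes the surface proteoglycan NG2, and Mcam encodes the adhesion molecule CD146. None of these genes is restricted to pericytes in every tissue, and fibroblasts, smooth muscle and other cells can express some of them.

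Kcnj8 and Abcc9 are neighbours on mouse chromosome 6 and had the most similar values of any pair among the 5, so the sequence upstream of their start sites is shown, with that of Rgs5, which did not follow them. The sequences are from RefSeq on GRCm38.p6, 5′ to 3′ on the strand of the gene, and the positions are chr6:142571615-142571864 (minus strand) for Kcnj8, chr6:142702316-142702524 (minus strand) for Abcc9 and chr1:169655251-169655500 (plus strand) for Rgs5. The Abcc9 stretch is 209 bases long because 41 bases that overlap an annotated exon were left out. Capitals mark the matches of the motifs searched: an E-box in Kcnj8, and an RBPJ motif and a GC box in Abcc9.
Kcnj8: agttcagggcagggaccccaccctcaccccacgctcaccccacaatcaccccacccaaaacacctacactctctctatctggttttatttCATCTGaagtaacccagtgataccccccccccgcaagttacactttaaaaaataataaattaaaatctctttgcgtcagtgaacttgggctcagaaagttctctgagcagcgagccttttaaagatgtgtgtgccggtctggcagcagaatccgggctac
Abcc9: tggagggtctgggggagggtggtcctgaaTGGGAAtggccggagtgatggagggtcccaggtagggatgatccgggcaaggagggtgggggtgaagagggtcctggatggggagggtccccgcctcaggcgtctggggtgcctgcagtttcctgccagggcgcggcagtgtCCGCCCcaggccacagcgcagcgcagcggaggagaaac
Rgs5: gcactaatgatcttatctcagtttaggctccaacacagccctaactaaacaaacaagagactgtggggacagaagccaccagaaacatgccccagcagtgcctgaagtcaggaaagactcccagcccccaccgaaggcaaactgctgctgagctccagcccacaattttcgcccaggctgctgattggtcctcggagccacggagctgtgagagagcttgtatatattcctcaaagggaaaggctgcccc
Both strands of the 250 bases upstream of each start were searched for the letters of a TATA box (TATAAA), a GC box (GGGCGG), an E-box (CANNTG), an AP-1 motif (TGANTCA) and an RBPJ motif (TGGGAA), and for the CArG box and the MEF2 motif by name. Kcnj8 held 1 E-box and Abcc9 held 1 GC box, 1 RBPJ motif and 1 E-box, the last within the bases left out. Rgs5 held no match of the 7 motifs. Of 32851 mouse promoters of the same length, 66.2% held the E-box, 32.7% the GC box and 21.6% the RBPJ motif. The GC share was 49.2% in Kcnj8, 66.8% in Abcc9 and 53.6% in Rgs5.

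Saa3, the gene deleted in the KO groups, was at 0 to 1.85 FPKM in the 6 KO libraries and at 2.75 FPKM or more in the others. The library labelled WT_CAF 1 stood apart from its group: Pdgfra, which marks fibroblasts, was at 9.80 FPKM there and at 61.0 to 123 in the other 10 fibroblast libraries, and the keratin Krt8 was at 252 FPKM against 0.600 to 116. Trp53 was at 2.85 FPKM in that library, against 17.2 to 45.7 in the other fibroblasts and 1.38 to 7.11 in tumor cells. Results that involve WT_CAF are therefore given with and without this library. FPKM summed to 396646 to 919859 per library, 10657 to 11670 genes reached 1 FPKM, and the table holds no counts, so the number of fragments behind a value is unknown and no counting interval is given.

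Kcnj8 was high in tumor fibroblasts and close to 0 elsewhere. Its level was 0.309, 1.49 and 1.47 FPKM in NPF 1 to 3. In WT_CAF 1 to 5 it was 0.202, 25.8, 36.7, 44.9 and 70.4 FPKM, and in KO_CAF 1 to 3 it was 53.6, 42.0 and 32.7 FPKM. All 7 CAF libraries other than the library labelled WT_CAF 1 lay above every NPF library, and that library lay below all 3. In tumor cells Kcnj8 was 0.0653, 0.115, 1.05 and 0.106 FPKM in WT_tumor 1 to 4 and 0.183, 0.0642 and 0.0265 FPKM in KO_tumor 1 to 3. By group mean the order was KO_CAF (42.8 ± 10.5 FPKM, SD, n = 3), WT_CAF (35.6 ± 25.7, n = 5), NPF (1.09 ± 0.676, n = 3), WT_tumor (0.335 ± 0.480, n = 4) and KO_tumor (0.0913 ± 0.0817, n = 3). Each neighbour in this order overlapped the next, and WT_CAF overlapped NPF through the library labelled WT_CAF 1 alone.

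Abcc9, the partner subunit, followed the same groups at a lower level. It was 0.267, 2.06 and 2.41 FPKM in NPF 1 to 3, and 0.141, 15.5, 10.7, 24.7 and 12.4 FPKM in WT_CAF 1 to 5. In KO_CAF 1 to 3 it was 14.5, 51.2 and 13.3 FPKM. The 7 CAF libraries again lay above NPF, and KO_CAF 2 was the one library where Abcc9 exceeded Kcnj8 among them. In tumor cells Abcc9 was 0.0307, 0.0231, 0.603 and 0.141 FPKM in WT_tumor 1 to 4 and 0.160, 0.0153 and 0.0848 FPKM in KO_tumor 1 to 3. The order of the means was KO_CAF (26.3 ± 21.6), WT_CAF (12.7 ± 8.86), NPF (1.58 ± 1.15), WT_tumor (0.199 ± 0.274) and KO_tumor (0.0867 ± 0.0724), with the same overlaps as for Kcnj8. FPKM is per transcript length, so the levels of the genes can be set side by side: the ratio of Kcnj8 to Abcc9 ran from 0.819 in KO_CAF 2 to 5.67 in WT_CAF 5 among the 7 CAF libraries.

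Kcnj11 and Abcc8 encode the other pore and receptor of this channel family, known from pancreatic beta cells. Kcnj11 was listed at 0 in all 11 fibroblast libraries and reached at most 1.13 FPKM, in WT_tumor 3. Abcc8 was at most 0.258 FPKM in any library. Neither passed the filter, so Kcnj8 and Abcc9 were the 2 of the 4 listed channel subunits that were tested.

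Rgs5 was low in fibroblasts and did not separate their groups. It was 0.295, 0.729 and 2.40 FPKM in NPF 1 to 3, and 0.0804, 2.55, 1.74, 0.774 and 3.26 FPKM in WT_CAF 1 to 5. In KO_CAF 1 to 3 it was 0.267, 0.920 and 5.63 FPKM, so the 3 fibroblast groups overlapped. The highest value of Rgs5 in the series was in a tumor cell library: WT_tumor 1 to 4 were at 1.04, 74.1, 2.34 and 6.27 FPKM and KO_tumor 1 to 3 at 0.248, 1.13 and 3.05 FPKM. Means ran from WT_tumor (20.9 ± 35.5) through KO_CAF (2.27 ± 2.92), WT_CAF (1.68 ± 1.29) and KO_tumor (1.47 ± 1.43) to NPF (1.14 ± 1.11), and every pair of neighbours overlapped. In WT_tumor 2 the peptidases Enpep and Anpep, also on the list of mural genes, were at 57.2 and 104 FPKM, while the mural receptor gene Pdgfrb was at 0.0835 FPKM and Kcnj8 at 0.115 FPKM. The epithelial markers summed to 6380 FPKM in that library.

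Cspg4 was low in every group. It was 0.268, 3.29 and 3.71 FPKM in NPF 1 to 3, 0.129, 1.96, 6.61, 0.520 and 2.204 FPKM in WT_CAF 1 to 5, and 3.84, 0.945 and 2.77 FPKM in KO_CAF 1 to 3. These 3 groups overlapped. In tumor cells Cspg4 was 0.0643, 0.0838, 1.19 and 0.664 FPKM in WT_tumor 1 to 4 and 0.633, 0.171 and 0.0851 FPKM in KO_tumor 1 to 3, and all KO_tumor libraries lay below all KO_CAF libraries. The means were 2.52 ± 1.46 in KO_CAF, 2.42 ± 1.88 in NPF, 2.28 ± 2.58 in WT_CAF, 0.502 ± 0.539 in WT_tumor and 0.296 ± 0.295 in KO_tumor. Neighbours in this order overlapped.

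Mcam was measured in every library at a low level. It was 2.16, 5.31 and 2.78 FPKM in NPF 1 to 3, and 0.999, 2.53, 12.1, 1.92 and 1.69 FPKM in WT_CAF 1 to 5. In KO_CAF 1 to 3 it was 5.37, 0.980 and 10.9 FPKM, and the fibroblast groups overlapped. Tumor cells were at 0.425, 0.789, 1.86 and 0.857 FPKM in WT_tumor 1 to 4 and at 3.15, 4.996 and 1.46 FPKM in KO_tumor 1 to 3. The means were 5.76 ± 4.99 in KO_CAF, 3.85 ± 4.65 in WT_CAF, 3.42 ± 1.67 in NPF, 3.20 ± 1.77 in KO_tumor and 0.984 ± 0.617 in WT_tumor, with each neighbour overlapping the next.

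**Figure D1:**
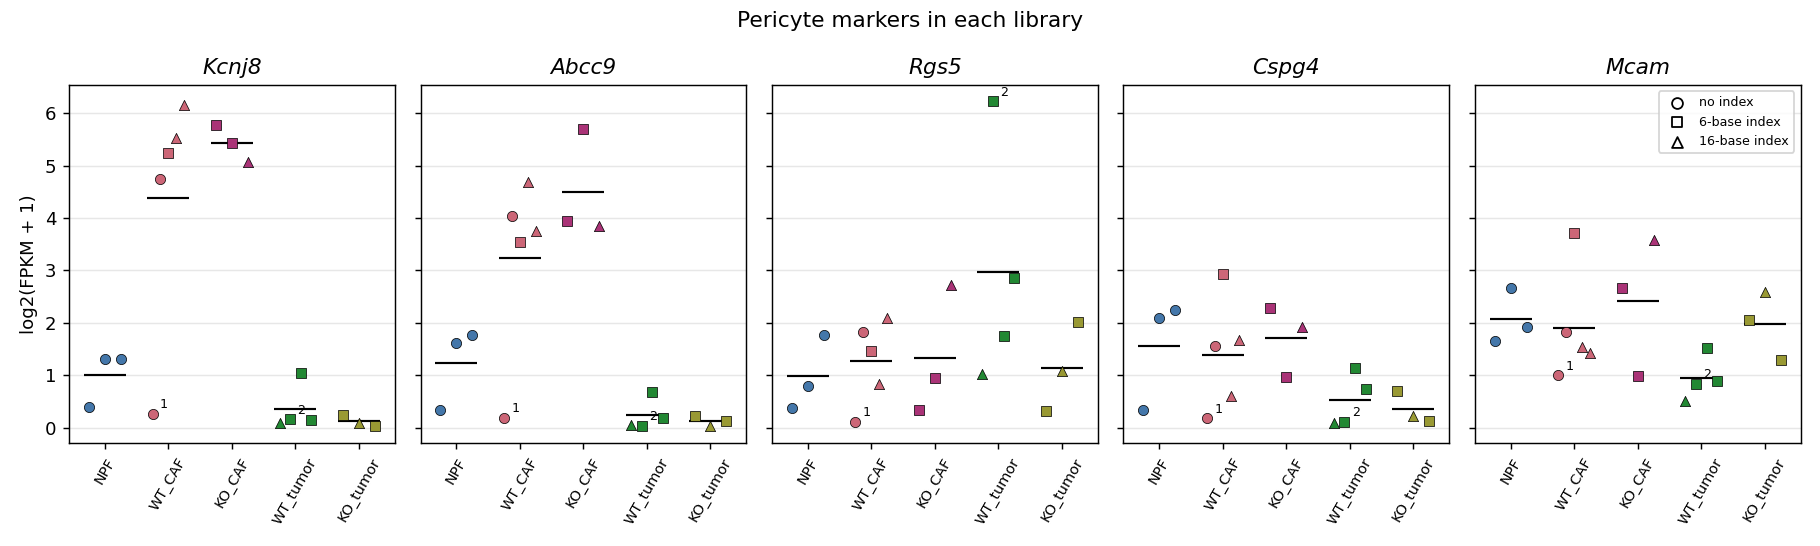
Level of each of the 5 genes as log2(FPKM + 1) (y axis) in the 5 groups (x axis); each point is 1 library, its shape shows which index form the label carries, lines are group means, and the numerals mark the library labelled WT_CAF 1 and WT_tumor 2. Kcnj8 and Abcc9 are high in 7 of 8 CAF libraries, while Rgs5, Cspg4 and Mcam overlap between the fibroblast groups and Rgs5 is highest in WT_tumor 2 (74.1 FPKM).

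The 5 genes did not move as one group. Their summed level was 48.3 to 96.1 FPKM in the 7 CAF libraries, of which Kcnj8 and Abcc9 made up 69.9% to 97.0%. In NPF the sum was 3.30 to 12.9 FPKM, with a share of 17.4% to 30.4% for these 2 genes. In WT_tumor 2 the sum was 75.1 FPKM and the share 0.183%, so a summed score would place this tumor cell library among the CAF libraries through Rgs5 alone. Fewer cells of a type and less RNA per cell cannot be told apart in these bulk samples, and "pericyte marker" is used here as the name of the list.

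The comparison of WT_CAF with NPF addresses how fibroblasts of tumors differ from those of normal pancreas. The description labels carry an index of no, 6 or 16 bases, and NPF share the form without an index only with WT_CAF 1 and 2, so a fit with this form as a term sets only those 2 libraries against NPF. In that fit 0 of the 5 genes passed (limma on log2(FPKM + 1), adjusted p under 0.05, and 0 at an unadjusted p under 0.05), where 0.950% of all genes tested did. The difference was 1.501 ± 0.86 (SE) for Kcnj8 (adjusted p = 0.392, limma) and 0.87 ± 0.85 for Abcc9 (adjusted p = 0.641). These values average WT_CAF 2, at 25.8 and 15.5 FPKM of Kcnj8 and Abcc9, with the library labelled WT_CAF 1, at 0.202 and 0.141 FPKM. Without WT_CAF 2 the same differences, then from the library labelled WT_CAF 1 alone, were -0.74 and -1.05.

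Without the library labelled WT_CAF 1, the same limma fit gave 3.74 ± 0.48 for Kcnj8 (adjusted p = 0.00255) and 2.80 ± 0.70 for Abcc9 (adjusted p = 0.0716), where 1.41% of all genes were called. Without that library and without the index form as a term, Kcnj8 was higher in WT_CAF by 4.41 ± 0.35 (adjusted p = 2.61e-06, limma) and Abcc9 by 2.76 ± 0.44 (adjusted p = 0.00145). That made 2 of 5 genes called, where 6.81% of all genes were called. Both genes were higher in 4 of 4 of these WT_CAF libraries than in any NPF library, and 21.2% of all genes tested likewise did not overlap, in either direction. In this last fit WT_CAF 3 to 5 differ from NPF in the form of the index too, which cannot be told apart from the group for those 3 libraries. WT_CAF 2 shares the form of NPF and was at 25.8 FPKM of Kcnj8 against at most 1.49 in NPF.

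Rgs5, Cspg4 and Mcam did not pass in any of these fits. With all libraries and the index form, the differences were -0.01 (95% interval -2.58 to 2.56) for Rgs5, -0.69 (-2.11 to 0.74) for Cspg4 and -0.67 (-2.28 to 0.94) for Mcam. Without both, they were 0.57 ± 0.94, 0.14 ± 0.53 and 0.05 ± 0.60. The intervals are wide and hold changes in both directions. The median over the 5 genes was -0.01 with the form and all libraries and 0.57 without both, beside -0.01 and -0.02 over all genes tested. NPF also held more acinar RNA: the 16 acinar markers summed to 1445 to 58101 FPKM in NPF and to 30.4 to 1096 in WT_CAF, and their part in the differences was not tested.

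KO_CAF against NPF gave the same picture for the library values, and the 2 comparisons share the NPF libraries. Kcnj8 and Abcc9 were higher in all 3 KO_CAF than in all 3 NPF libraries, as were 13.1% of all genes, while the other 3 members overlapped. With the index form, 0 of 5 genes passed in limma (0 at an unadjusted p under 0.05), where 0.135% of all genes did, at 1.26 ± 1.17 for Kcnj8 (adjusted p = 0.774) and 1.32 ± 1.16 for Abcc9 (adjusted p = 0.761). No KO_CAF library shares the form of NPF, so this fit reaches NPF only through WT_CAF 1 and 2. Without the form and without the library labelled WT_CAF 1, the differences were 4.42 ± 0.37 for Kcnj8 (adjusted p = 5.98e-06, limma) and 3.26 ± 0.47 for Abcc9 (adjusted p = 0.000991), where 4.79% of genes were called. In that fit form and group cannot be told apart. With the form and without the library labelled WT_CAF 1, the fit reaches NPF only through WT_CAF 2. Kcnj8 then differed by 3.49 and Abcc9 by 3.25.

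The loss of Saa3 was tested in fibroblasts by KO_CAF against WT_CAF. No KO_CAF library carries the form without an index, so with the form as a term the differences rest on WT_CAF 3 to 5. WT_CAF 1 and 2 then enter only the estimate of the spread. None of the 5 genes passed in limma (0 of 5 also at an unadjusted p under 0.05), and 0.00748% of all genes tested did, which is 1 gene. Kcnj8 differed by -0.24 (95% interval -1.94 to 1.45), Abcc9 by 0.44 (-1.24 to 2.13), Rgs5 by -0.19 (-2.56 to 2.17), Cspg4 by -0.21 (-1.52 to 1.11) and Mcam by 0.17 (-1.32 to 1.65). Without the library labelled WT_CAF 1 and without the index form, the intervals narrowed to -0.73 to 0.74 for Kcnj8 and to -0.44 to 1.43 for Abcc9, where 0.0299% of all genes and none of the 5 were called. Within the 6-base form KO_CAF differed from WT_CAF by 0.36 in Kcnj8 and within the 16-base form by -0.77, each with 3 libraries in all. Missing the threshold does not show that the levels are equal.

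Tumor cells held less Kcnj8 and Abcc9 than the fibroblasts sorted from tumors of the same Saa3 genotype. No tumor cell library carries the form without an index either. In the fit with the form, the differences from WT_CAF thus rest on WT_CAF 3 to 5. Against WT_CAF, WT_tumor differed by -5.32 ± 0.76 in Kcnj8 (adjusted p = 0.000668, limma) and by -3.83 ± 0.75 in Abcc9 (adjusted p = 0.00348). The 2 genes called compare with 21.5% of all genes called, 12.5% as lower, so a called fall is common in this comparison. Cspg4 (-1.45 ± 0.59, adjusted p = 0.0913), Mcam (-1.31 ± 0.66, adjusted p = 0.170) and Rgs5 (1.42 ± 1.06, adjusted p = 0.350, limma) did not pass. Leaving out the library labelled WT_CAF 1, both called genes were lower in all 4 WT_tumor than in all 4 WT_CAF libraries, as were 16.1% of all genes. Within the 6-base form Kcnj8 differed by -4.79 (3 against 1 library) and within the 16-base form by -5.75 (1 against 2). With only the 2 groups in the fit, Abcc9 missed the threshold at -3.68 ± 0.91 (adjusted p = 0.0568, limma).

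In the Saa3-/- groups, KO_tumor differed from KO_CAF by -5.30 ± 0.77 in Kcnj8 (adjusted p = 0.000508, limma) and by -4.38 ± 0.76 in Abcc9 (adjusted p = 0.00130). Of all genes, 28.4% were called here, 15.4% as lower. Cspg4 did not pass (-1.37 ± 0.59, adjusted p = 0.0996), although its 3 KO_tumor libraries lay below its 3 KO_CAF libraries, as did those of Kcnj8, Abcc9 and 21.3% of all genes tested. Within the 6-base form Kcnj8 differed by -5.46 (2 against 2 libraries) and within the 16-base form by -4.98 (1 against 1). Mcam (-0.43 ± 0.67) and Rgs5 (-0.20 ± 1.07) overlapped between the groups.

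KO_tumor against WT_tumor gave no called gene among the 5 and none among all genes tested (0% called by limma, with 528 genes at an unadjusted p under 0.05, none of them a member). Rgs5 differed by -1.81 (95% interval -3.96 to 0.35), a value in which WT_tumor 2 alone held 74.1 FPKM. Without WT_tumor 2 it was -0.73. Mcam differed by 1.04 (-0.31 to 2.39), and the other 3 genes by -0.23 to -0.10.

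**Figure D2:**
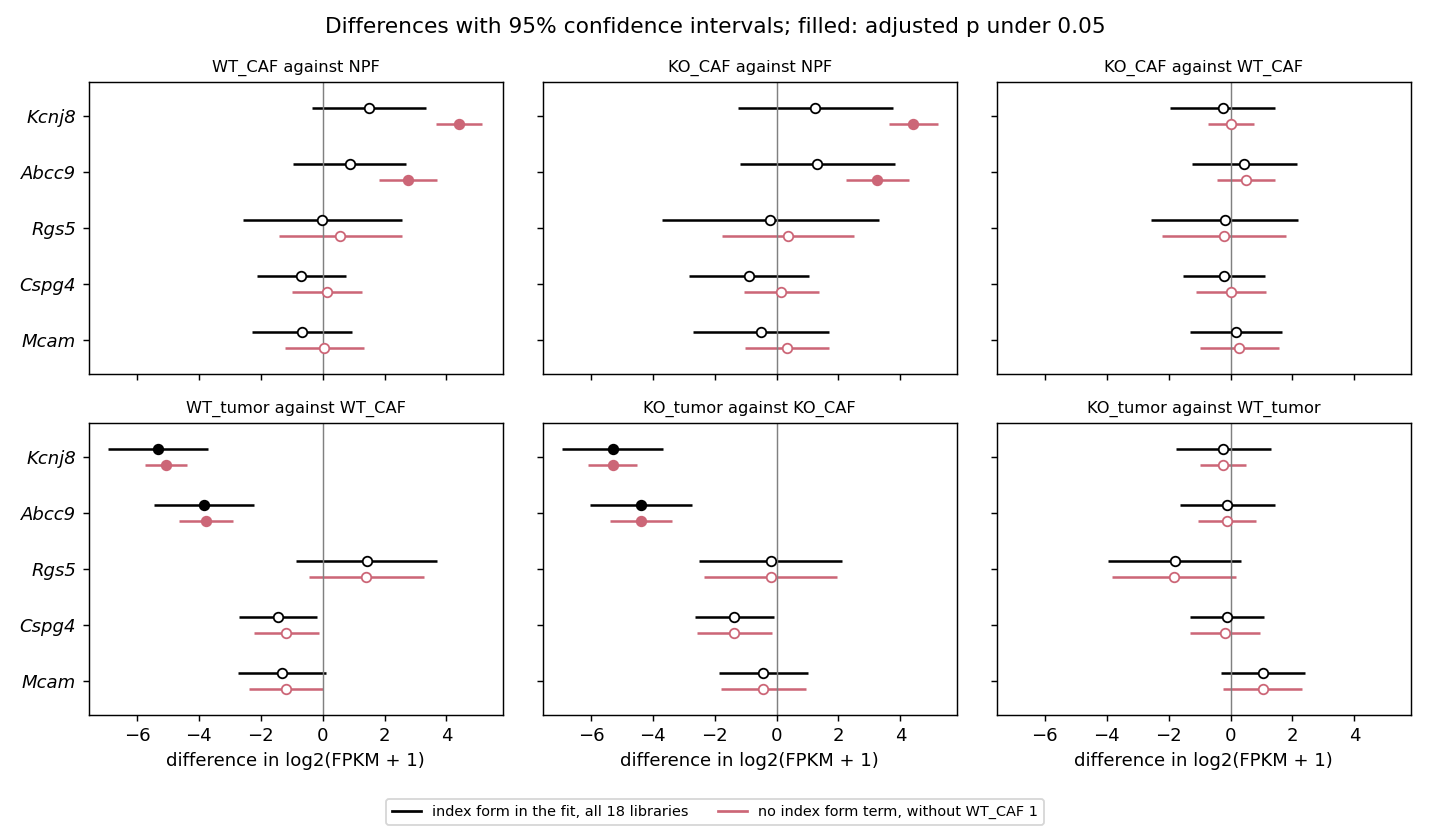
Difference of each gene in log2(FPKM + 1) (x axis) with its 95% confidence interval in the 6 comparisons; black is the fit with the index form and all 18 libraries, red the fit without the form and without the library labelled WT_CAF 1, and filled points have an adjusted p under 0.05. Kcnj8 and Abcc9 are called in both fits for tumor cells against fibroblasts, and of the 2 fits only in the red one against NPF. The red fit called 30.2% of all genes in WT_tumor against WT_CAF and 27.0% in KO_tumor against KO_CAF.

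The list of 30 other pericyte and mural genes gives the surroundings of these values, and 27 of them were tested. In WT_CAF against NPF none was called with the index form and all libraries (limma, median -0.73). Without both, 2 rose and 1 fell, with a median of 0.19 beside -0.02 over all genes, of which 6.81% were called in that fit: Ednra, the endothelin receptor A of mural and stromal cells, rose by 2.65 ± 0.32 (adjusted p = 0.000140, limma), Gucy1a3, a subunit of the nitric oxide receptor, rose by 1.08 ± 0.28 (adjusted p = 0.0328), and its partner subunit Gucy1b3 fell by 1.05 ± 0.28 (adjusted p = 0.0346). In KO_CAF against NPF, Ednra and Gucy1a3 were the 2 called in that fit, at 2.37 ± 0.34 and 1.18 ± 0.30, where 4.79% of all genes were. Between KO_CAF and WT_CAF 0 of 27 were called in either fit.

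Pdgfrb, the receptor through which PDGF-B recruits pericytes, was high in NPF as well as in CAF: 33.1, 90.4 and 87.9 FPKM in NPF 1 to 3, 17.9 to 93.6 in WT_CAF and 75.5 to 82.4 in KO_CAF. Among genes that mark pericytes and smooth muscle more narrowly, Notch3 was at most 3.88 FPKM in CAF and highest in NPF 3, at 9.001 FPKM. Higd1b was at most 1.19 FPKM in CAF and 2.34 in NPF 3. The gap junction gene Gja4 was at most 0.956 FPKM in any library. Other genes of the list were high in some of the same CAF libraries. In WT_CAF 5 and KO_CAF 1, the 2 libraries highest in Kcnj8, Ndufa4l2 was at 109 and 276 FPKM, against 17.8 to 30.3 in NPF. In the same libraries Des was at 91.8 and 135 FPKM, against 3.56 to 20.0 in NPF. Across the CAF libraries these 2 genes did not rank as Kcnj8 did. In WT_CAF 3, at 36.7 FPKM of Kcnj8, Ndufa4l2 was at 179 FPKM and Des at 136. In WT_CAF 4 and KO_CAF 2, at 44.9 and 42.0 FPKM of Kcnj8, Ndufa4l2 was at 22.1 and 20.9 FPKM. Both Ndufa4l2 and Des lay within the range of NPF there. Vtn, which encodes vitronectin, was at 104 FPKM in WT_CAF 4 and 5.66 in KO_CAF 1.

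In tumor cells against fibroblasts 16 of the 27 fell and none rose, both for WT_tumor against WT_CAF (median -1.69, all genes 0.07) and for KO_tumor against KO_CAF (median -2.91, all genes 0.05). Of all genes, 12.5% and 15.4% fell in these comparisons. The 20 fibroblast markers moved the same way, with 14 of 20 falling in each, and the part of fibroblast content in these counts was not tested. Pdgfrb fell in both, with differences of -5.38 ± 0.55 (adjusted p = 0.000137, limma) and -5.88 ± 0.56. So did Lhfp (-5.43 ± 0.74 and -6.51 ± 0.75), Cd248, which encodes the sialomucin endosialin (-5.93 ± 1.07 and -6.56 ± 1.08), and Ednra (-3.83 ± 0.57 and -3.70 ± 0.58). Ndufa4l2, Des, the muscle intermediate filament desmin, and the forkhead factor gene Foxs1 also fell in both.

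**Figure D3:**
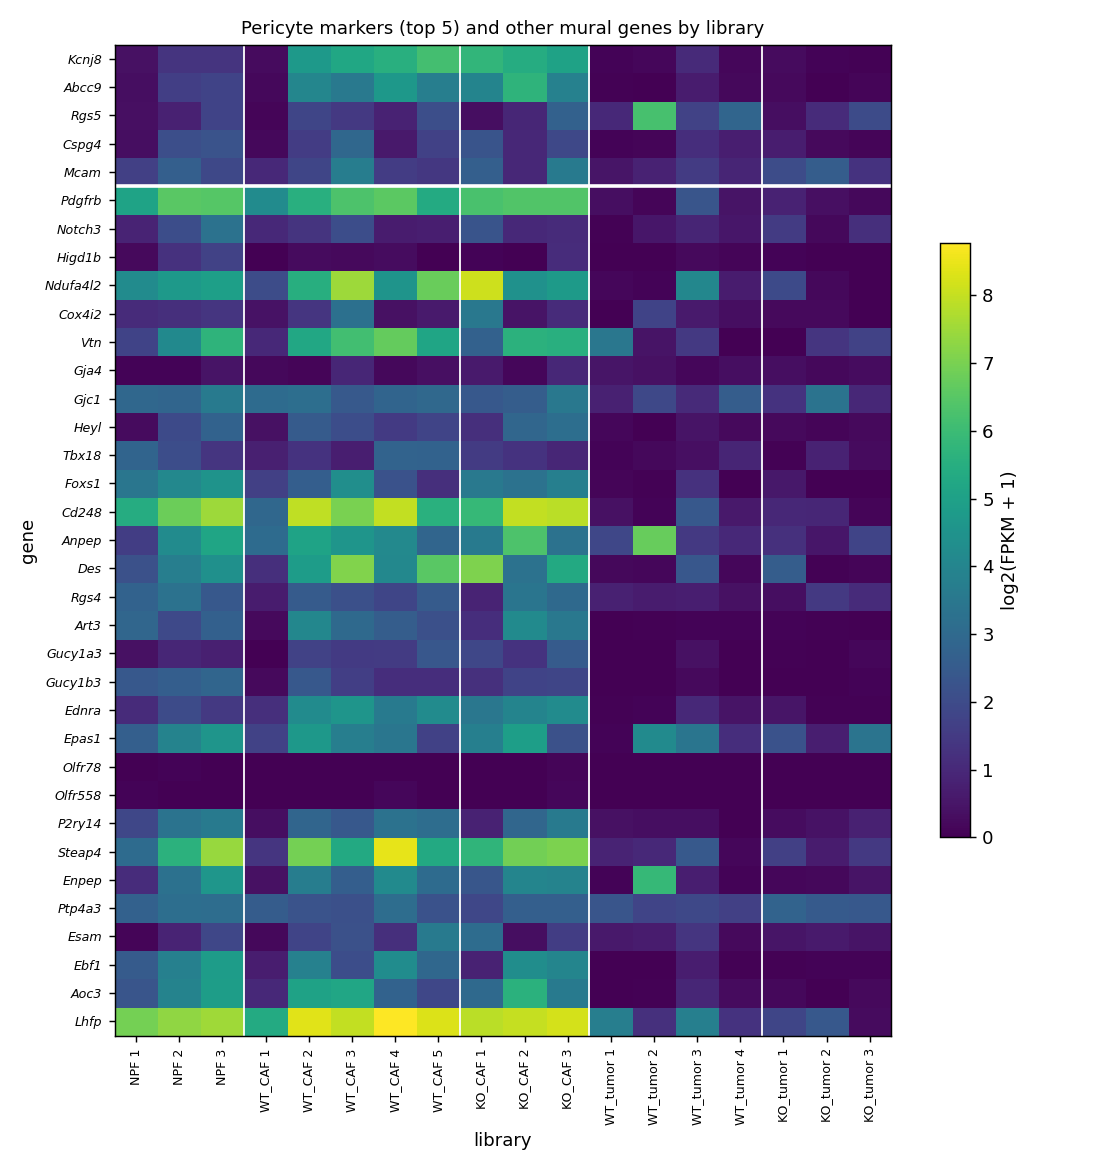
Level of the 5 genes (top, above the white line) and of 30 other pericyte and mural genes (rows) in the 18 libraries (columns), colored by log2(FPKM + 1). Pdgfrb, Cd248 and Lhfp are high in NPF and CAF alike, Kcnj8 and Abcc9 only in CAF, and the library labelled WT_CAF 1 is low in both of the last 2 genes.

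The genes through which vessels and their neighbours recruit pericytes were read from a list of 24, of which 21 were tested. Pdgfb, the ligand of Pdgfrb, was 7.07, 5.46, 18.6 and 11.7 FPKM in WT_tumor 1 to 4 and 26.0, 15.9 and 33.1 FPKM in KO_tumor 1 to 3. It was at most 1.01 FPKM in the fibroblast libraries other than that labelled WT_CAF 1, where it was 8.13 FPKM. In limma it rose in tumor cells against fibroblasts by 2.81 ± 0.57 (adjusted p = 0.00406) with Saa3 and by 4.15 ± 0.58 (adjusted p = 0.000384) without it. Hbegf, an EGF receptor ligand, rose by 2.95 ± 0.51 and 3.48 ± 0.52, and the Notch ligand gene Dll4 by 2.62 ± 0.62 and 2.09 ± 0.63. In WT_tumor against WT_CAF 5 of the 21 rose and 10 fell, where 9.05% of all genes rose and 12.5% fell. In KO_tumor against KO_CAF 3 rose and 10 fell, where 13.0% rose and 15.4% fell, so the share that rose was near that of all genes. Angpt1, a ligand that steadies vessels, fell in tumor cells (-2.82 ± 0.43 and -2.38 ± 0.44), and was higher in WT_CAF than in NPF by 1.69 ± 0.33 (adjusted p = 0.00630, limma) only in the fit without the form and without the library labelled WT_CAF 1.

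Mural cells sit on endothelial cells, whose markers were read in the same libraries. Of the 20 listed, 13 were tested. The 20 summed to 97.2 to 220 FPKM in NPF, to 22.9 to 142 in WT_CAF and to 73.1 to 99.0 in KO_CAF. Eng, also made by fibroblasts, was at up to 149 FPKM, in NPF 2, but at 7.76 FPKM in WT_CAF 5 and 10.1 in KO_CAF 1. Of the genes that define the cell type, Pecam1 was at most 0.941 FPKM outside NPF 3, where it was highest, Cdh5 was at most 2.06 FPKM, also in NPF 3, and Vwf at most 0.537 in any library. Others on the list were higher in some fibroblast libraries. Ecscr was at 3.84 to 27.8 FPKM in NPF, 1.56 to 52.7 in WT_CAF and 10.4 to 41.9 in KO_CAF. It also reached 24.6 FPKM in tumor cells, in WT_tumor 4. Kdr, a VEGF receptor gene, was at 29.3 FPKM in WT_CAF 5, 8.79 in WT_CAF 3 and 8.44 in KO_CAF 1, and at most 1.94 in NPF. Esam, which is on the mural list too, was at 11.1 FPKM in WT_CAF 5 and 7.55 in KO_CAF 1. Tek and Plvap were highest in NPF 3, at 20.1 and 23.0 FPKM. WT_CAF 5, highest in Kcnj8, was thus also highest in Kdr and Esam. In that library Pecam1 was at 0.243 FPKM, Cdh5 at 0.133 and Vwf at 0.0456. Its 20 endothelial markers summed to 76.8 FPKM, below every NPF library. Eng was at 63.4, 149 and 148 FPKM in NPF 1 to 3. Without Eng the sum in WT_CAF 5 would lie above those in NPF 1 and 2. The part of endothelial RNA in the values was not tested.

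Other small RGS proteins of the R4 family behaved in their own ways beside Rgs5, and 6 of 9 were tested. Rgs4, also a pericyte marker in some tissues, was 4.36 to 9.02 FPKM in NPF, 0.594 to 4.75 in WT_CAF and 0.843 to 9.75 in KO_CAF. Rgs16 was the 1 called gene in tumor cells against fibroblasts, with differences of -2.64 ± 0.78 (adjusted p = 0.0278, limma) with Saa3 and -2.92 ± 0.79 (adjusted p = 0.0148) without it. The other 5 tested, Rgs5 included, did not pass in either comparison.

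Genes with the most similar pattern were ranked by Pearson's r of log2(FPKM + 1), among genes reaching 5 FPKM. Over the 11 fibroblast libraries the 3 nearest to Kcnj8 were Plat (r = 0.974), Gdpd2 (0.972) and Wnt2 (0.971), and the 2 nearest to Abcc9 were Adamts15 (0.980) and Ror1 (0.979). Kcnj8 and Abcc9 had r = 0.926 with each other there, 0.902 over the 10 libraries without that labelled WT_CAF 1, and 0.962 over all 18. Over the 10 libraries Abcc9 ranked 148 in likeness to Kcnj8, and Kcnj8 ranked 85 in likeness to Abcc9. Over the 11 libraries these ranks were 63 and 37. Cspg4 was nearest to Tbx2 (0.918), Lrrc55 (0.893) and the smooth muscle myosin gene Myh11 (0.892), and Cspg4 and Mcam had r = 0.770. Mcam was nearest to Crabp1 (0.810), Megf11 (0.810) and Mlf2 (0.780), and Rgs5 to Hhat (0.895), Prpf18 (0.874) and Ccdc117 (0.845). Rgs5 had r = 0.434 with Kcnj8 over the 11 libraries and -0.11 over the 18. Over all 18 libraries Rgs5 was nearest to Cdhr5 (0.856), Slc5a1 (0.831) and Slc26a6 (0.831). Rgs5 was at 74.1 FPKM in WT_tumor 2 and at most 6.27 FPKM elsewhere, and no ranking was made without WT_tumor 2. The nearest genes changed over the 10 fibroblast libraries without that labelled WT_CAF 1. Kcnj8 was then nearest to Prickle1 (0.984), Abcc9 to Glis3 (0.984) and Mcam to Ckb (0.864), while Rgs5 stayed nearest to Hhat (0.869). Cspg4 was nearest to Nrcam (0.904), Mast2 (0.896) and Tbx2 (0.889) there. All these are descriptions over points that share their groups.

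Kcnj8 and Abcc9 lie side by side, so the protein-coding genes on either side were read as well, in RefSeq order: Golt1b, Spx, Gys2, Ldhb, Kcnj8, Abcc9, Cmas, Sult6b2, St8sia1 and C2cd5. Of these, Spx and Sult6b2 were not analysed here, and Gys2 and St8sia1 were at most 0.0561 and 0.106 FPKM. Ldhb, a lactate dehydrogenase subunit next to Kcnj8, had a mean of 20.7 FPKM in NPF, 108 in WT_CAF 2 to 5 and 67.9 in KO_CAF. In the library labelled WT_CAF 1 it was at 1.85 FPKM. With all libraries and the index form it was not called against NPF. The differences were -0.61 ± 1.27 in WT_CAF (adjusted p = 0.853, limma) and -1.42 ± 1.72 in KO_CAF (adjusted p = 0.837). That fit reaches NPF only through WT_CAF 2, at 64.6 FPKM of Ldhb, and the library labelled WT_CAF 1. By library, Ldhb was at 13.9 to 27.9 FPKM in NPF, 64.6 to 214 in WT_CAF 2 to 5 and 37.7 to 119 in KO_CAF. A fit without the form and without the library labelled WT_CAF 1 is not given for Ldhb. Ldhb fell in WT_tumor against WT_CAF by 3.69 ± 1.12 (adjusted p = 0.0309, limma). Cmas, next to Abcc9, went the other way in tumor cells: its mean was 26.6 FPKM in KO_CAF and 88.6 in KO_tumor, a rise of 1.44 ± 0.48 (adjusted p = 0.0370, limma). The same differences in the other Saa3 genotype did not pass: -2.80 ± 1.13 for Ldhb (adjusted p = 0.0790) and 1.28 ± 0.47 for Cmas (adjusted p = 0.0675, limma). Golt1b and C2cd5 were not called in any comparison. The files' build differs from that of this gene order, which is used only for the neighbours.

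**Figure D4:**
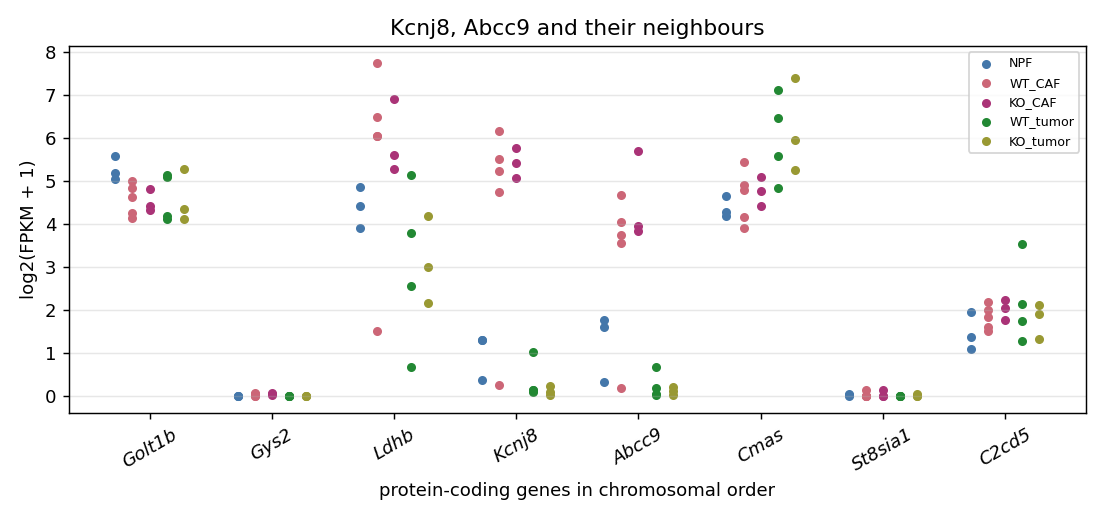
Level as log2(FPKM + 1) (y axis) of Kcnj8, Abcc9 and their neighbouring protein-coding genes in chromosomal order (x axis, no distances); each point is 1 library, colored by group. Kcnj8 and Abcc9 are high in CAF only, Ldhb has higher values in 7 of 8 CAF libraries than in NPF, and Cmas reaches its highest values in tumor cells.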

How the data were processed

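Per the labels' protocols, RNA was prepared with a TruSeq kit and run on a HiSeq2000. The values used are FPKM as deposited by the authors, in 1 table of 23951 gene symbols and 18 libraries. The submitters' processing notes name, with no order or role, Cufflinks 2.2.1, Cuffnorm, TopHat2 2.0.10 and Bowtie 1.0.0, and list mm9 as the one mouse build. The sources used here state no settings and no annotation. A gene can be listed at 0 where an estimate failed: among the listed genes this may hold for Col1a1 and Col1a2 (KO_CAF 2), Fn1 (KO_CAF 1 and the library labelled WT_CAF 1) and Col3a1 (WT_CAF 2 to 4), which had an exact 0 beside high values in their group. None of the 5 genes was at 0. Groups came from the treatment label. Replicate numbers follow deposition order and pair nothing. The series' design text states biological replicates, but not from which animals, so p-values measure the spread between these libraries. Differences were computed with limma 3.58.1 in R 4.3.3 (empirical Bayes with trend, two-sided) on log2(FPKM + 1), in 1 fit of all 18 libraries with the index form as an additive term (11 residual degrees of freedom, 13 without it), over 13369 genes with 1 FPKM in at least 3 libraries, with Benjamini-Hochberg adjustment and a threshold of 0.05. A difference on this scale understates the change of genes with low values. The index form is what the labels show and was treated as a batch. With this term, every difference of KO_CAF or WT_tumor from WT_CAF rests on WT_CAF 3 to 5. Alternatives were a pseudocount of 0.1, no filter, a filter of 5 FPKM, no index form term, no such term without the library labelled WT_CAF 1, quantile normalization, only the 2 groups compared, and each library left out. From each other gene list, genes called were named, up to 8 per comparison, and otherwise those of highest mean. The members and lists were chosen with earlier results of these data known. 1 allele in the labels is not reported here.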

Additional observations from a re-analysis of the deposited data

Results flagged for a closer look

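In groups of 4 or 5 libraries, values in FPKM that lay far from the rest were picked out. The rule was a gap to the nearest library that is large for the range of the group. Chance does this in about 1 of 20 groups if values are normally distributed, which FPKM need not be. The rule was not run on log2(FPKM + 1), where the picks can differ. Kcnj8 was at 1.05 FPKM in WT_tumor 3, against 0.0653 to 0.115 FPKM in the other WT_tumor libraries. In the same library Pdgfra was at 1.86 FPKM and Pdgfrb at 4.03 FPKM, each the highest of its group, and the part of fibroblast RNA in the value was not tested. Rgs5 was at 74.1 FPKM in WT_tumor 2, against 1.04 to 6.27 FPKM in the other 3. Mcam was at 12.1 FPKM in WT_CAF 3, against 0.999 to 2.53 FPKM in the other 4, and Cspg4 was highest in that library too, at 6.61 FPKM.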

How the results depend on the processing

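The fall of Kcnj8 and Abcc9 in tumor cells kept its direction and its side of the threshold under each alternative run, except that Abcc9 in WT_tumor against WT_CAF missed it with only the 2 groups fitted (-3.68, adjusted p = 0.0568, limma). With each library left out in turn, Kcnj8 ranged from -5.72 to -5.07 in WT_tumor against WT_CAF and from -5.49 to -5.13 in KO_tumor against KO_CAF, and Abcc9 from -4.32 to -3.49 and from -4.74 to -3.77. Against NPF the result turned on 1 library: Kcnj8 ranged from -0.74 to 3.74 in WT_CAF and from -0.98 to 3.49 in KO_CAF, and Abcc9 from -1.05 to 2.80 and from -0.61 to 3.25, lowest without WT_CAF 2 and highest without the library labelled WT_CAF 1. Without the index form Kcnj8 was at 4.42 in KO_CAF against NPF (adjusted p = 0.0336, limma) and 3.38 in WT_CAF (adjusted p = 0.0608). No paired analysis was possible because the labels give the groups no shared replicate numbers. Several CAF and tumor libraries of the same Saa3 genotype have consecutive title numbers, but the labels do not say that these mark 1 animal. KO_CAF 1 and KO_tumor 1, which do, had the highest S100a8 of the series (280 and 299 FPKM). A shared animal was not modelled.

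Genes called in WT_CAF against NPF (127) came to 249 with no filter, 59 with 5 FPKM, 307 without the form, 2 with only those groups and 910 without the form and the library labelled WT_CAF 1, and 46 to 1324 with a library left out (lowest without NPF 2, highest without WT_CAF 2). In KO_CAF against NPF (18) they came to 4 with the pseudocount of 0.1, 35 with no filter, 4 with 5 FPKM, 241 without the form, 222 with only those groups and 641 without the form and that library, and 7 to 394 (without KO_CAF 3 or NPF 2, and without WT_CAF 2). In KO_CAF against WT_CAF (1) they came to 0 with only those groups, 4 without the form and that library, and 1 to 2. In KO_tumor against WT_tumor (0) they came to 5 with no filter, and 0 to 1. In WT_tumor against WT_CAF (2880) they came to 742 with only those groups, and 1194 (without WT_CAF 3) to 3557. In KO_tumor against KO_CAF (3798) they ranged from 2201 (without KO_CAF 2) to 4427. The highest counts against NPF, without WT_CAF 2, come from a fit that reaches NPF only through the library labelled WT_CAF 1. The cause of the other shifts was not tested, beyond the fewer libraries or genes in some fits.

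Differences of members that were not called changed sign between some settings, and not all of them stayed near 0. Without the form, WT_CAF 1 and 2 also enter the difference of KO_CAF from WT_CAF. Without the form, Rgs5 in WT_CAF against NPF was 0.29, KO_CAF against WT_CAF was 1.04 for Kcnj8, 0.33 for Cspg4 and 0.075 for Rgs5, and KO_CAF against NPF was 0.16 for Cspg4, 0.33 for Mcam and 0.36 for Rgs5, the last 3 values being the same with only those groups and without the form and the library labelled WT_CAF 1. With quantile normalization Rgs5 in WT_CAF against NPF was 0.034, and with only the 2 groups Rgs5 in KO_CAF against WT_CAF was 0.23. Without the form and that library, WT_CAF against NPF was 0.14 for Cspg4, 0.048 for Mcam and 0.57 for Rgs5, and KO_CAF against WT_CAF was 0.022 for Cspg4 and 0.0094 for Kcnj8. With a library left out, WT_CAF against NPF ranged from -0.86 to 0.85 for Rgs5 and from -1.38 to 0.0080 for Cspg4. KO_CAF against NPF ranged from -1.49 to 0.69 for Mcam and from -1.46 to 0.66 for Rgs5. KO_CAF against WT_CAF ranged from -0.091 to 0.88 for Abcc9, -0.68 to 0.46 for Cspg4, -0.62 to 0.0125 for Kcnj8, -0.82 to 1.35 for Mcam and -1.45 to 0.31 for Rgs5. KO_tumor against KO_CAF ranged from -1.20 to 0.36 for Mcam and from -0.76 to 0.82 for Rgs5, and KO_tumor against WT_tumor from -0.19 to 0.029 for Abcc9 and from -0.30 to 0.11 for Cspg4. Levels below about 1 FPKM rest on an unknown number of fragments, and 3 libraries in a group leave wide intervals.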

Other observations

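Smooth muscle contractile genes are the other mural program. Of 22 listed, 18 were tested, and in WT_CAF against NPF 3 fell and none rose in limma, with a median of -1.53 beside -0.01 over all genes, of which 90 of 13369 fell and 37 rose. In the same fit the medians of the 20 fibroblast markers (-1.30) and of the other mural genes (-0.73) were below 0 as well, and whether the smooth muscle genes differ from them was not tested. Ppp1r14a, an inhibitor of myosin phosphatase, fell by 3.51 ± 0.47 (adjusted p = 0.00226, limma), Sncg by 3.11 ± 0.59 (adjusted p = 0.0237) and the actin nucleator gene Lmod1 by 1.56 ± 0.31 (adjusted p = 0.0284). Without the index form and without the library labelled WT_CAF 1, the same 3 were called, at -2.98, -3.11 and -1.56. In that fit 6.81% of all genes were called, and 392 of 13369 fell. The median was -0.40, beside 0.44 for the fibroblast markers. Ppp1r14a was 11.3, 18.6 and 24.0 FPKM in NPF 1 to 3 and 0.312 to 2.85 FPKM in WT_CAF, so the groups did not overlap. Leaving out the library labelled WT_CAF 1, 21.2% of all genes tested likewise did not overlap, in either direction. Myh11, the smooth muscle myosin, was 0.917 to 5.53 FPKM in NPF and 0.155 to 23.2 FPKM in WT_CAF, and was not called.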
